A study of Homo sapiens with 9 samples.

Results

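The G2/M and mitosis genes are 35 genes that carry a cell from the end of DNA replication through chromosome segregation and cytokinesis. They were listed by name and function, with earlier results of these data known. Where a gene had several probe sets the brightest, by its mean over the 9 arrays, stood for it, and all 35 were measured, among 18132 genes in all. RNA of the human breast cancer line MDA-MB231, an established line, was hybridised to 9 arrays. Cells were plated at 70% confluency in DMEM with 10% FBS and changed to fresh medium on the next day, with 0.1% DMSO as vehicle in 4 control cultures. A further 2 cultures received 10 µM BB94 (batimastat, an inhibitor of metalloproteinases) and 3 received 3 µM PD325901 (an inhibitor of MEK, the kinase that activates ERK). Every culture was harvested at 24 h, all in the same medium, and the labels describe the culture as 90% confluent. Both inhibitors were diluted from a 10 mM stock in DMSO, and the sources used here do not give the DMSO content of the inhibitor cultures. All arrays are of 1 cell line, labelled as biological replicates, and the series as a whole asks how shedding of receptor tyrosine kinases bears on resistance to kinase inhibitors.

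Entry into mitosis is driven by CDK1 bound to B-type cyclins, and Aurora and Polo-like kinases then build the spindle while kinetochores attach chromosomes to it. The spindle checkpoint holds the anaphase-promoting complex (APC/C) in check until every chromosome is attached, after which separase frees the sister chromatids and kinesins and midzone proteins divide the cell. Transcripts of these genes are low in resting cells and in G1 and peak in G2 and mitosis, and in breast tumours they are read as markers of proliferation.

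The arrays carried the profile of the line. VIM (vimentin) lay between 13.90 and 14.10 on the log2 scale, and the mesenchymal genes CD44, CAV1, CAV2, AXL, FN1 and MSN were above background on all 9 arrays. ESR1, PGR and CDH1 were above background on 0 arrays, while GATA3, a luminal gene, lay at 7.69 to 8.79 and above background on 9. The leukocyte markers PTPRC, CD3E and CD14 and the endothelial markers CDH5 and VWF were above background on 0 of 9 arrays, whereas PECAM1 was on 7 and KDR on 5. The difference between 3' and 5' probe sets of ACTB, a sign of RNA quality, ran from 2.96 to 3.89 in control, 3.91 to 4.22 under BB94 and 3.50 to 4.15 under PD325901. Its part in the results was not tested.

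All values are log2 intensities, and a change is a difference of group means on that scale. A gene was called when limma's two-sided test, adjusted over all 18132 genes, gave p under 0.05. All 35 genes lay above the background probe sets on all 9 arrays, with a lowest value of 7.33, for ESPL1 in PD325901 replicate 2.

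PD325901 lowered nearly the whole group, by modest amounts. It lowered 33 of 35 genes (94.3%) and raised 0, where 12.3% of all genes were called lower and 22.8% higher. The median log2 change was -0.60, a 1.52-fold fall, with single genes between -1.40 (AURKB) and -0.15 (CCNB2), beside a median of 0.08 over all genes. A fall of at least 2-fold was called for 4 genes (AURKB, ESPL1, NDC80 and MKI67), 17 fell by 1.5 to 2-fold and 12 by less than 1.5-fold. The 2 genes not called were CCNB2, a mitotic cyclin, and KIF20A, a kinesin of the cleavage plane. In the same 33 genes every PD325901 array lay below every control array, against 14.8% of all genes. The arrays average over a whole culture, so fewer cells in G2 and mitosis and less RNA per such cell cannot be told apart.

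The 3 PD325901 cultures were alike in this. The median deviation of the 35 genes from their control means was -0.62, -0.64 and -0.65 in PD325901 replicates 1 to 3. In control replicates 1 to 4 it was 0.00, 0.03, 0.02 and -0.03, and in the BB94 replicates -0.07 and -0.27. The median SD of the 35 genes was 0.12 in control, 0.07 under BB94 and 0.06 under PD325901, beside 0.16, 0.08 and 0.09 over all genes. The 3 PD325901 medians lay within 0.03 of each other and below those of all other arrays, and both BB94 medians lay between them and control. With each array centred on its median over genes, the all-gene median under PD325901 moved from 0.08 to -0.17 and the calls over all genes from 2223 lower and 4142 higher to 5076 lower and 2353 higher. The group's median then was -0.86 and 35 of 35 were called lower, where 28.0% of all genes were. Relative to the all-gene median it stood at -0.69 in both scalings. Centring cannot change this value, since it moves all genes of an array alike. With cyclic loess, which can change it, the value was -0.65.

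**Figure D1:**
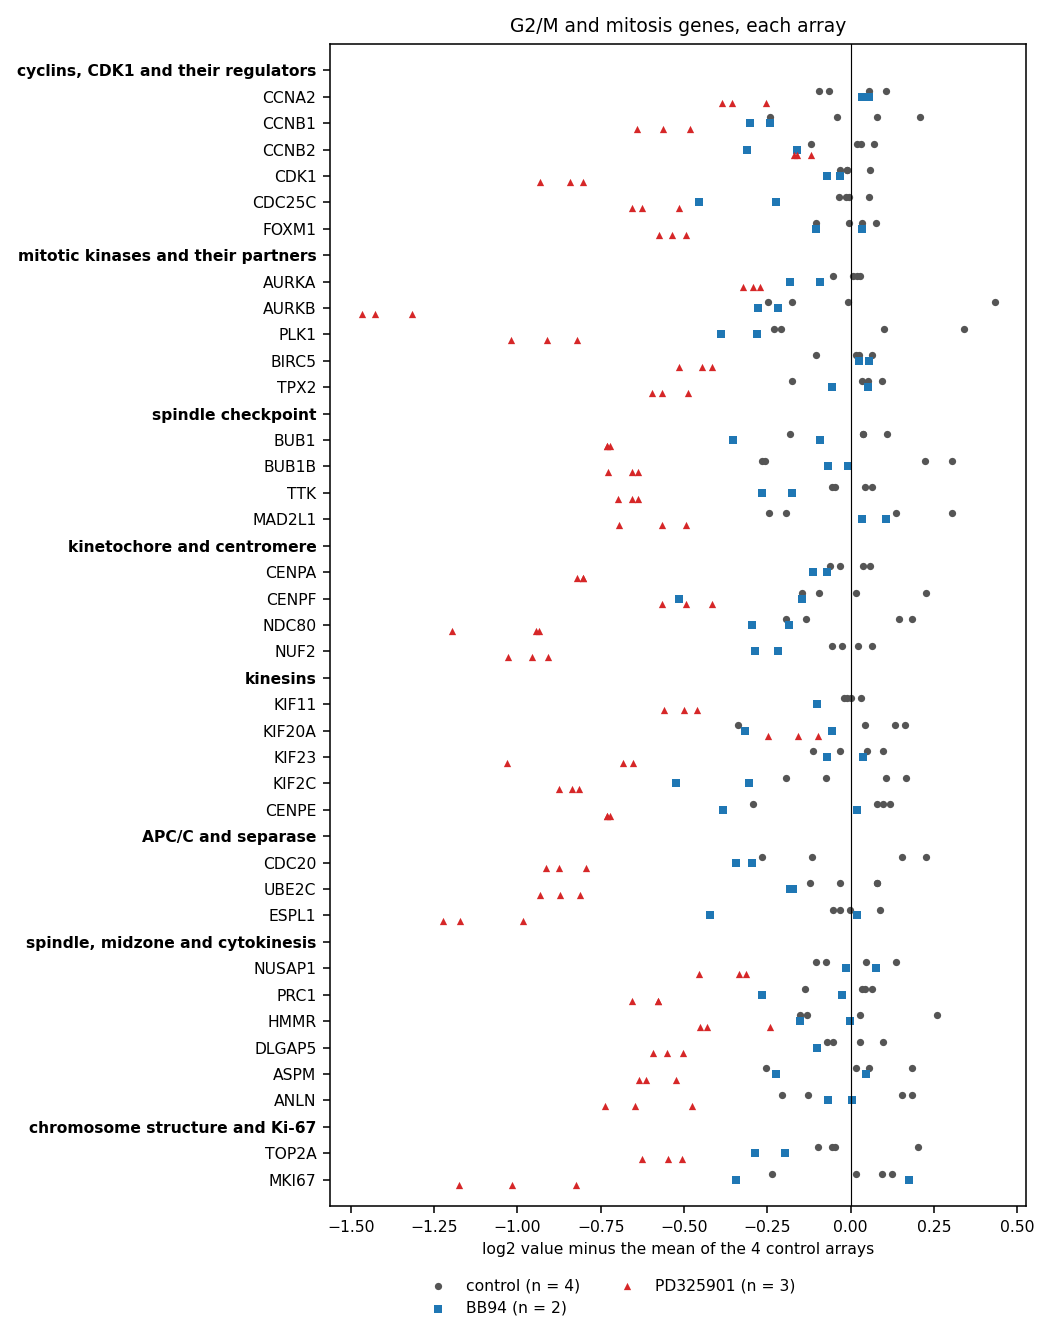
Each point is 1 array, plotted as the log2 value of a gene minus the mean of the 4 control arrays, with the 35 genes grouped by role (circles, control; squares, BB94; triangles, PD325901). The PD325901 arrays lie left of every control array for all genes but CCNB2 and KIF20A.

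Promoters of such genes are known for a short element, the CHR (cell cycle genes homology region), often found near CCAAT boxes. The CHR is bound by the MuvB core, which represses as part of the DREAM complex in resting cells and activates with B-MYB and FOXM1 in G2. RefSeq promoter windows of 300 bases (250 before and 50 after a start, build GRCh38.p14) were matched to 29 of the 35 genes, in 34 windows, since CDC25C, CDK1 and AURKB have several that can overlap. The genes without a window here are AURKA, BIRC5, TPX2, TTK, UBE2C and FOXM1. On either strand, TTTGAA occurred in 24 of 34 windows (70.6%), against 12.4% of the 20403 windows of measured genes. With the variant TTCGAA counted as well, 23 of 29 genes (79.3%) had a match, against 17.6% of measured genes. CCAAT occurred in 76.5% of the windows, against 34.7%. The E2F words TTTCGCGC, TTTGGCGC and TTTCCCGC occurred in 11.8%, against 3.47%. Of 25 G1/S and DNA replication genes, 21 had a window here, and their 27 windows held the CHR in either spelling in 7.41% of cases, the E2F words in 55.6% and CCAAT in 74.1%. A match is a description of letters and not a site shown to be bound.

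The 120 bases before the start are printed here for 7 genes, 5′ to 3′ on the gene's strand, with TTTGAA or CCAAT (or its reverse complement ATTGG) in capitals. The first 4 belong to genes that fell by 1.81-fold to 2.18-fold and hold both motifs. They are examples and do not stand for all genes with such falls. NDC80 (2.03-fold) and NUF2 (1.95-fold) had a CHR match but 0 CCAAT boxes in their windows, while CDK1 (1.81-fold) had both. CCNB2 and KIF20A were the genes not called, the former with and the latter without a CHR match. AURKB had the largest fall and neither motif in the printed stretch. In MKI67 a CHR match and a reversed CCAAT box overlap by 1 base.
ESPL1, chr12:53268179-53268298, plus strand: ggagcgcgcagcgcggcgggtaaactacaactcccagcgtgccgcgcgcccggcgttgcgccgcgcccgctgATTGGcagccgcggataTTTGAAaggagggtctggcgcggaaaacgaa
PLK1, chr16:23678769-23678888, plus strand: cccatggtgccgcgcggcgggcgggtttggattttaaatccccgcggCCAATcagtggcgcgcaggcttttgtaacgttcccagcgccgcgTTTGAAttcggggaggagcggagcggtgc
MKI67, chr10:128126424-128126543, minus strand: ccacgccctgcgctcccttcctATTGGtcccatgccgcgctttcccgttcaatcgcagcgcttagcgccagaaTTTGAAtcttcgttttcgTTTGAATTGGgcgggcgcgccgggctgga
CDC20, chr1:43358861-43358980, plus strand: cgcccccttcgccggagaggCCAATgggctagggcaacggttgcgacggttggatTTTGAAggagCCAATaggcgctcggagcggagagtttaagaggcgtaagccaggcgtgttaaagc
CCNB2, chr15:59105026-59105145, plus strand: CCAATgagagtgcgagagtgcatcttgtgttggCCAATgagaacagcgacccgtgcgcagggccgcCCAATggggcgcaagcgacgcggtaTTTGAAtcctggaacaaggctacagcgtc
KIF20A, chr5:138178992-138179111, plus strand: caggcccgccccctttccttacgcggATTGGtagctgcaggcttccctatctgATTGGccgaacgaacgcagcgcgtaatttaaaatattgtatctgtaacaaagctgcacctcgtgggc
AURKB, chr17:8210226-8210345, minus strand: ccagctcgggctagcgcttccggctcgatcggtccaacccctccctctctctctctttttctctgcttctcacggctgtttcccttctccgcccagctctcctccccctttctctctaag

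Of the 35 CHR matches (in either spelling), 26 lay within 60 bases of a start, in 20 genes. Overlapping windows of CDC25C count the same site under both starts, and the share over all promoters was not computed. Genes with and without a match had similar median changes, and the difference was not tested. Other spellings of the CHR were not searched for, so a gene without a match here may still hold one. The 23 genes with a CHR match in either spelling had a median change of -0.62 under PD325901 (range -1.13 to -0.15), and the 6 without one a median of -0.65 (range -1.40 to -0.17). CCNB2, with 4 CCAAT boxes and a CHR match in its full window, was not called, while KIF2C and CENPE, with 0 of either, fell by 0.84 and 0.73.

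**Figure D2:**
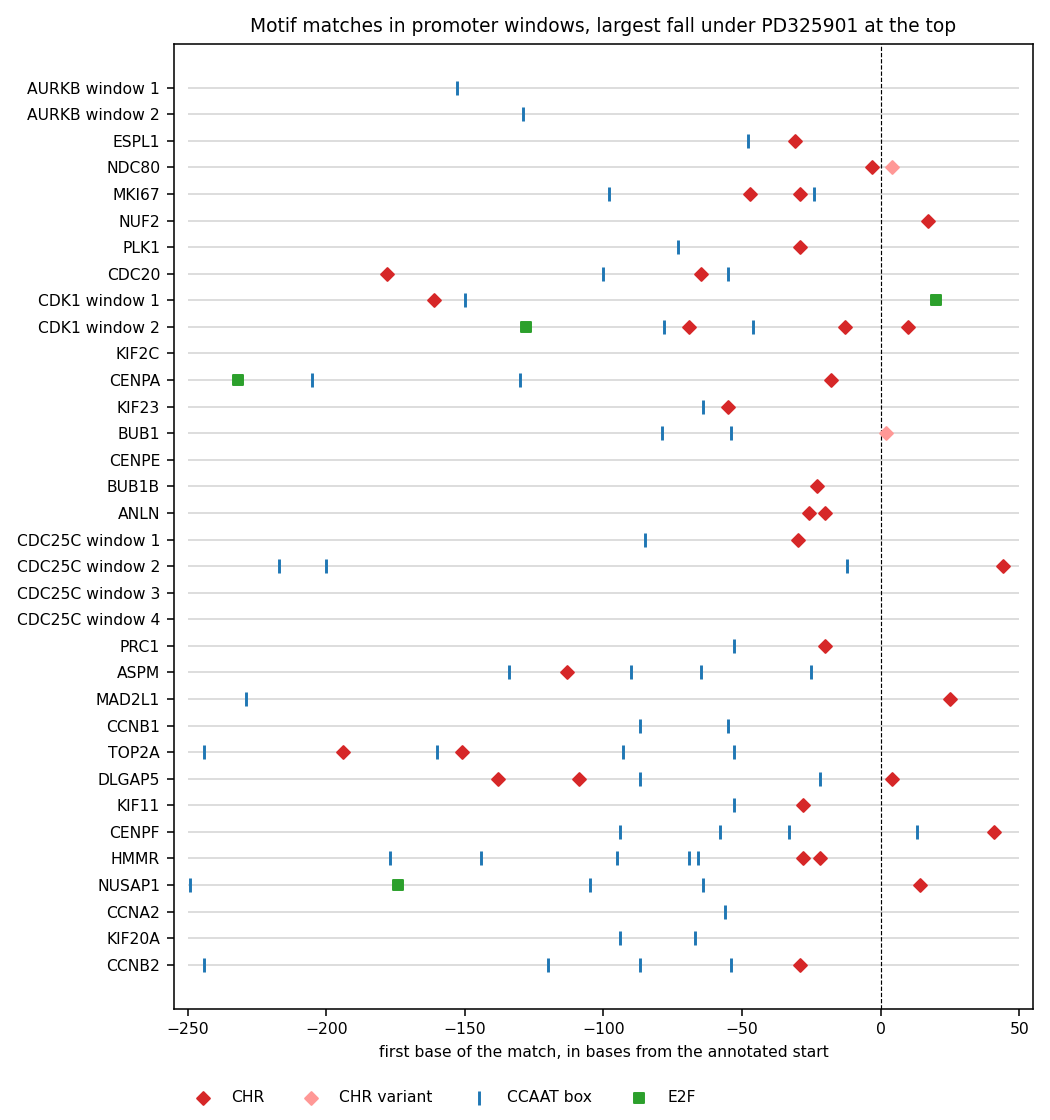
Positions of motif matches in the promoter windows, as the distance in bases from the RefSeq start (0), with 1 line per window, ordered from the largest fall under PD325901 (top) to the smallest. Most CHR matches lie within 60 bases of the start, and most CCAAT boxes lie before it.

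Of the cyclins, CDK1 and their regulators, 5 of 6 fell, with a median of -0.55. CDK1, the kinase that starts mitosis, read 13.02, 13.04, 13.04 and 13.11 in control replicates 1 to 4, 13.02 and 12.98 under BB94 and 12.21, 12.25 and 12.12 under PD325901. The PD325901 arrays stood apart from the other 6, and the change was -0.86 (SE 0.07, 1.81-fold, adjusted p = 6.3e-06). CDC25C, a phosphatase that activates CDK1, read 9.27, 9.29, 9.36 and 9.30 in control, 9.08 and 8.85 under BB94 and 8.68, 8.79 and 8.65 under PD325901. Both inhibitor groups lay below all controls without overlap, and the PD325901 change was -0.60 (adjusted p = 0.000221). FOXM1, the transcription factor that drives many genes of this group, averaged 11.67 ± 0.08 (SD, n = 4) in control and 11.13 ± 0.04 (SD, n = 3) with the inhibitor (1.45-fold lower, adjusted p = 0.00034).

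Of the B-type cyclins, CCNB1 was called and CCNB2 was not. CCNB1 (cyclin B1) read 12.22, 12.42, 12.54 and 12.67 in control, 12.22 and 12.16 under BB94 and 11.90, 11.98 and 11.82 under PD325901, a fall of 1.48-fold (adjusted p = 0.00201). CCNB2 (cyclin B2) read 11.22, 11.37, 11.36 and 11.41 in control, 11.18 and 11.03 under BB94 and 11.17, 11.22 and 11.18 under PD325901. The PD325901 arrays of CCNB2 sat at the level of control replicate 1 and the BB94 arrays, and the change of -0.15 (95% interval -0.33 to 0.03) was not called (adjusted p = 0.194). Centring on the median over genes gave -0.40 and a call for it (adjusted p = 0.00425). CCNA2 (cyclin A2), which acts from S phase into early mitosis, fell by 0.33, with means of 12.29 ± 0.10 (SD, n = 4) in control and 11.96 ± 0.07 (SD, n = 3) under PD325901 (1.26-fold, adjusted p = 0.00811).

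Each of the 5 mitotic kinases and partners fell, and the Aurora kinases marked the extremes of this role. AURKB, the kinase of the chromosomal passenger complex that corrects faulty attachments, read 10.44, 10.51, 10.68 and 11.12 in control, 10.47 and 10.41 under BB94 and 9.26, 9.37 and 9.22 under PD325901. All PD325901 arrays lay over 1 log2 unit below the lowest control, a 2.64-fold fall (log2 -1.40, SE 0.15, adjusted p = 2.81e-05). AURKA, the kinase of centrosomes and spindle poles, read 13.43, 13.45, 13.44 and 13.37 in control, 13.33 and 13.24 under BB94 and 13.15, 13.10 and 13.13 under PD325901. The groups did not overlap for AURKA either, but the fall was 1.23-fold (log2 -0.29, SE 0.07, adjusted p = 0.00789). TPX2, which activates AURKA on the spindle, fell by 0.55, with means of 11.66 ± 0.12 (SD, n = 4) in control and 11.10 ± 0.06 (SD, n = 3) under PD325901 (adjusted p = 0.000553). BIRC5 (survivin), a passenger partner of AURKB, had a mean of 13.10 ± 0.07 (SD, n = 4) in control and 12.65 ± 0.05 (SD, n = 3) under PD325901 (1.37-fold lower, adjusted p = 0.000759).

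PLK1 (Polo-like kinase 1), which acts on centrosomes, kinetochores and cytokinesis, read 8.34, 8.36, 8.91 and 8.67 in control, 8.29 and 8.18 under BB94 and 7.75, 7.66 and 7.55 under PD325901. Control replicates 3 and 4 were the higher of the controls, as they were for AURKB. The PD325901 fall of PLK1 was 1.89-fold (log2 -0.92, SE 0.14, adjusted p = 0.000372), larger than the gap within control. The stretch before its start, printed above, holds 1 CHR match and 1 CCAAT box.

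The 4 spindle checkpoint genes fell by similar amounts, from -0.73 to -0.59, with a median of -0.67. TTK (MPS1), the kinase that starts checkpoint signalling at kinetochores, read 10.65, 10.64, 10.74 and 10.76 in control, 10.52 and 10.43 under BB94 and 10.06, 10.04 and 10.00 under PD325901, a 1.58-fold fall (adjusted p = 5.06e-05). BUB1, a kinetochore kinase, read 10.85, 10.92, 10.85 and 10.63 in control, 10.72 and 10.46 under BB94 and 10.09, 10.08 and 10.08 under PD325901, a 1.66-fold fall (adjusted p = 0.000139). For both, the PD325901 arrays lay within 0.06 of each other and below all other arrays. BUB1B (BUBR1), which inhibits the APC/C, read 11.70, 11.62, 11.13 and 11.14 in control, 11.33 and 11.39 under BB94 and 10.67, 10.76 and 10.74 under PD325901. Its controls split into a higher and a lower pair, and the 1.60-fold fall had a wider error (SE 0.14, adjusted p = 0.00371). MAD2L1 (MAD2), which is loaded onto CDC20 to block the APC/C, showed the same split of the controls, at 13.14, 12.97, 12.64 and 12.59, against 12.34, 12.14 and 12.27 under PD325901 (log2 -0.59, adjusted p = 0.00561).

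The kinetochore and centromere genes had the largest median change of the 8 roles, -0.89, and 4 of 4 fell. NDC80 and NUF2 are the microtubule-binding pair of the NDC80 complex. NDC80 read 10.75, 10.81, 11.13 and 11.09 in control, 10.76 and 10.65 under BB94 and 10.00, 10.01 and 9.75 under PD325901, a 2.03-fold fall (adjusted p = 5.43e-05). NUF2 read 10.91, 10.88, 11.00 and 10.96 in control, 10.72 and 10.65 under BB94 and 10.03, 9.98 and 9.91 under PD325901, a 1.95-fold fall (adjusted p = 3.44e-06). The PD325901 arrays were the lowest 3 for both genes, by more than the spread of the controls. CENPA, the histone H3 variant that marks centromeres, had a mean of 12.58 ± 0.06 (SD, n = 4) in control and 11.77 ± 0.01 (SD, n = 3) under PD325901, 1.75-fold lower (adjusted p = 8.66e-06). CENPF, a large protein of the outer kinetochore, fell by 0.50, with means of 10.74 ± 0.17 (SD, n = 4) in control and 10.24 ± 0.07 (SD, n = 3) under PD325901 (adjusted p = 0.00689). With the mean of its probe sets, CENPF was not called (log2 -0.33, adjusted p = 0.0633).

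Among the kinesins, 4 of 5 fell. KIF2C (MCAK), which depolymerises microtubules at kinetochores, read 9.75, 9.87, 10.11 and 10.05 in control, 9.64 and 9.42 under BB94 and 9.11, 9.13 and 9.07 under PD325901. The BB94 arrays lay between the other groups with no overlap, and PD325901 gave a 1.79-fold fall (adjusted p = 9.26e-05). KIF11 (Eg5), which pushes spindle poles apart, had a mean of 12.77 ± 0.02 (SD, n = 4) in control and 12.27 ± 0.05 (SD, n = 3) under PD325901, 1.42-fold lower (adjusted p = 0.000202). CENPE, a kinetochore kinesin that moves chromosomes to the spindle equator, read 10.79, 10.81, 10.77 and 10.40 in control, 10.71 and 10.31 under BB94 and 9.96, 9.96 and 9.97 under PD325901. Control replicate 4 and BB94 replicate 2 were lower than their group, yet still above all PD325901 arrays (1.66-fold lower, adjusted p = 0.000871). KIF23 (MKLP1), a kinesin of the central spindle, read 10.31, 10.26, 10.10 and 10.18 in control, 10.25 and 10.14 under BB94 and 9.56, 9.18 and 9.53 under PD325901, a 1.73-fold fall (adjusted p = 0.000174).

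KIF20A (MKLP2), which carries passenger proteins to the midzone, was the kinesin that was not called. It read 10.70, 10.73, 10.61 and 10.23 in control, 10.51 and 10.25 under BB94 and 10.32, 10.41 and 10.47 under PD325901. All PD325901 arrays fell within the control range, and the change of -0.17 (95% interval -0.45 to 0.11, adjusted p = 0.363) was not called. The result rested on control replicate 4, since without it the change was -0.28 with a call (adjusted p = 0.0446). It was called as well with array weights (-0.27, adjusted p = 0.034), without control replicates 3 and 4 (-0.32, adjusted p = 0.0348) and centred over genes (-0.42, adjusted p = 0.0166).

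Each of the 3 genes of APC/C activity and separase fell, with a median of -0.87. ESPL1 (separase), the protease that cleaves cohesin, read 8.55, 8.52, 8.50 and 8.64 in control, 8.57 and 8.13 under BB94 and 7.57, 7.33 and 7.38 under PD325901, a 2.18-fold fall (log2 -1.13, SE 0.11, adjusted p = 2.07e-05). CDC20, the mitotic activator of the APC/C, read 10.67, 10.82, 11.09 and 11.16 in control, 10.64 and 10.59 under BB94 and 10.06, 10.14 and 10.02 under PD325901, a 1.81-fold fall (adjusted p = 0.000199). UBE2C, the ubiquitin-conjugating enzyme that works with the APC/C, read 12.17, 12.17, 11.97 and 12.06 in control, 11.91 and 11.92 under BB94 and 11.16, 11.22 and 11.28 under PD325901, a 1.83-fold fall (adjusted p = 1.12e-05). In all 3 the PD325901 arrays lay below every other array. ESPL1 and CDC20 are among the genes whose CHR matches are printed above.

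The 6 genes of spindle, midzone and cytokinesis all fell, each by less than 2-fold, with a median of -0.57. ANLN (anillin), a scaffold of the cleavage furrow, had a mean of 12.12 ± 0.20 (SD, n = 4) in control and 11.51 ± 0.13 (SD, n = 3) under PD325901, 1.53-fold lower (adjusted p = 0.00159). PRC1, which bundles midzone microtubules, had a mean of 11.76 ± 0.09 (SD, n = 4) in control and 11.16 ± 0.04 (SD, n = 3) under PD325901, 1.52-fold lower (adjusted p = 0.000336). ASPM, a spindle pole protein, had a mean of 11.00 ± 0.18 (SD, n = 4) in control and 10.40 ± 0.06 (SD, n = 3) under PD325901, 1.51-fold lower (adjusted p = 0.00184). The spindle assembly genes DLGAP5 (HURP) and NUSAP1 fell by 0.55 (adjusted p = 0.000205) and 0.37 (adjusted p = 0.00647). HMMR, a spindle and hyaluronan-binding protein, read 11.33, 11.10, 10.92 and 10.94 in control, 11.07 and 10.92 under BB94 and 10.83, 10.64 and 10.62 under PD325901. Its lowest control lay 0.09 above the highest PD325901 array, and its call (1.30-fold lower, adjusted p = 0.0245) was the weakest of the 33. HMMR lost it without control replicate 2 (adjusted p = 0.0568), PD325901 replicate 2 (0.091), PD325901 replicate 3 (0.0946) or control replicates 1 and 2 (0.0735).

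MKI67 and TOP2A, both used as proliferation markers in pathology, fell as well. MKI67 (Ki-67), which coats mitotic chromosomes, read 11.99, 11.88, 11.96 and 11.63 in control, 12.04 and 11.52 under BB94 and 11.04, 10.85 and 10.69 under PD325901. The BB94 arrays lay 1 above and 1 below all controls, while the PD325901 arrays were all lower, by 2.01-fold on average (log2 -1.01, SE 0.14, adjusted p = 0.000246). TOP2A, the topoisomerase that untangles sister chromatids, read 12.20, 12.21, 12.46 and 12.16 in control, 12.06 and 11.97 under BB94 and 11.63, 11.75 and 11.71 under PD325901, a 1.47-fold fall (adjusted p = 0.000675).

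**Figure D3:**
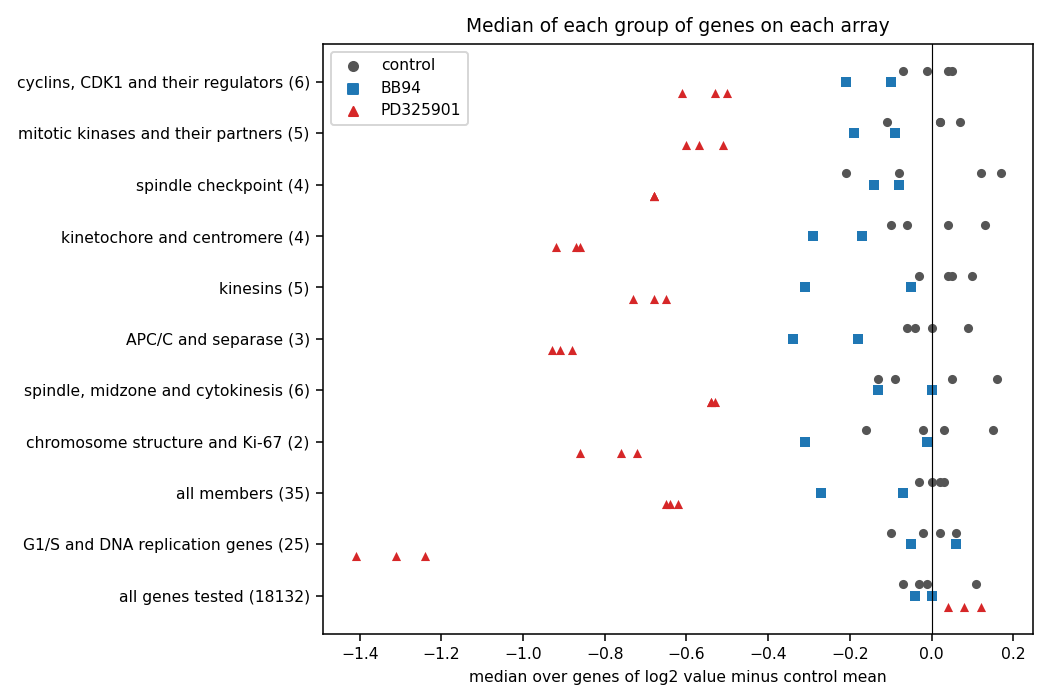
Each point is 1 array (circles, control; squares, BB94; triangles, PD325901), plotted as the median over a group's genes of the log2 value minus the control mean, for each role, all 35 genes, 25 G1/S and DNA replication genes and all 18132 genes. In every role the 3 PD325901 arrays lie below all other arrays, while over all genes they lie at 0.04 to 0.12.

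In 3 of 5 pairs of related genes the within-array differences of the 2 groups did not overlap. How often other gene pairs do so was not computed, so the count is not read as a result about these pairs. Among single genes, a different measure, all PD325901 arrays lay below all controls in 14.8% and above them in 25.6%. In each pair of related genes the difference within each array was compared between PD325901 and control by an exact permutation test (two-sided), for which 4 against 3 arrays allow no p below 0.0571. AURKB minus AURKA was -2.74 ± 0.34 (SD, n = 4) in control and -3.84 ± 0.10 (SD, n = 3) under PD325901, and the arrays of the groups did not overlap (exact p = 0.0571, adjusted 0.0952). CCNB1 minus CCNB2 had a mean of 1.12 ± 0.12 (SD, n = 4) in control and 0.71 ± 0.07 (SD, n = 3) under PD325901, again without overlap (exact p = 0.0571, adjusted 0.0952). KIF20A minus KIF23 had a mean of 0.36 ± 0.21 (SD, n = 4) in control and 0.98 ± 0.23 (SD, n = 3) under PD325901, likewise without overlap (exact p = 0.0571, adjusted 0.0952). BUB1 minus BUB1B changed by -0.05 (exact permutation p = 0.8) and NDC80 minus NUF2 by -0.06 (exact permutation p = 0.571), both with overlapping arrays, and the former turned to 0.05 without control replicate 3. None of the 5 could pass 0.05 in this design. These differences are of changes, since levels of different probe sets cannot be set against each other.

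Other probe sets of the same genes mostly showed larger falls. The 35 genes have 90 probe sets, of which 76 were above background on all arrays. Of these 76, 72 were called lower under PD325901, 0 higher and 4 not called. The remaining 14 were below background on some array, with 8 called lower and 0 higher. Over all 44988 probe sets, 5560 were called lower and 7885 higher. Probe sets of the same gene are not separate results. In the 22 genes with at least 2 probe sets above background, 33 of the 41 other probe sets had a larger fall than the brightest. The median change was -0.60 for the brightest and -0.75 for the median of the others.

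CDK1 fell by 0.86 on its brightest probe set (mean 12.75) and by 1.56, or 2.95-fold, on its other (mean 10.31). MAD2L1 fell by 0.59 on its brightest and by up to 1.52 on another. TOP2A fell by 0.56 on its brightest and by up to 1.14 on another. The reverse order was seen in CENPF, at -0.50 on the brightest and -0.17 on the other. The sizes given per gene therefore depend on the probe set, and those of bright probe sets were mostly the smaller ones. Why they differ was not tested.

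**Figure D4:**
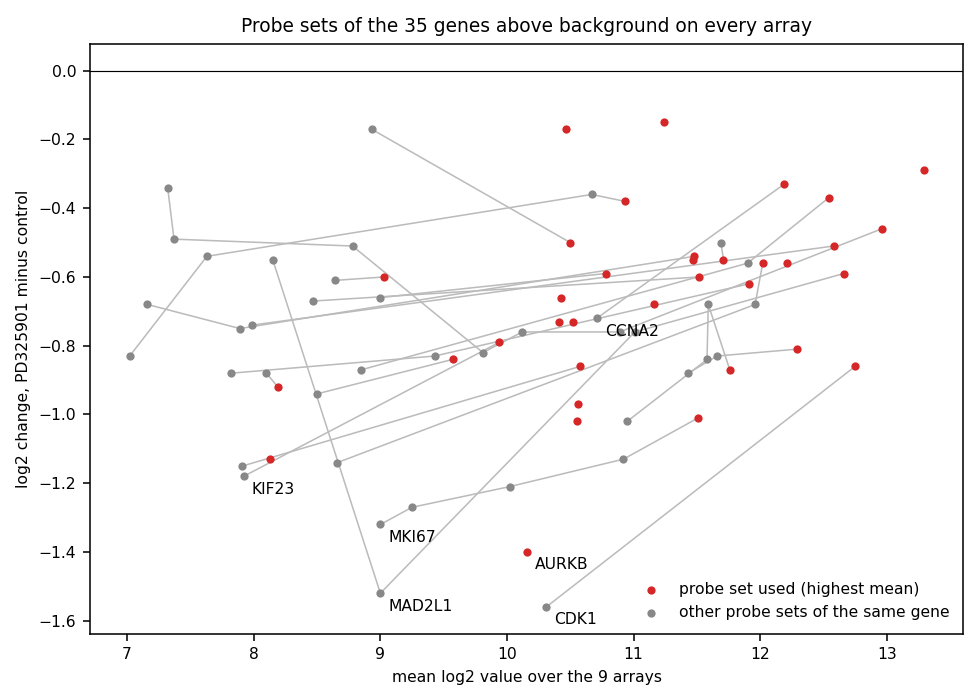
Log2 change under PD325901 of each probe set above background on all arrays (vertical) against its mean log2 value over the 9 arrays (horizontal), in red for the brightest of each gene and grey for the others, with lines joining probe sets of 1 gene. Most of the other probe sets lie lower on the vertical axis than the brightest of their gene.

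BB94 called 0 of 35 genes lower or higher by limma, where 1.09% of all genes were called lower and 0.491% higher. An unadjusted p under 0.05 was found for 9 of the 35 and for 1968 of all 18132 genes. The median change was -0.15, beside -0.02 over all genes. Changes were below 0 in 31 of the 35 and in 10349 of all 18132 genes. With arrays centred on their medians, 25 (over genes) or 19 (over probe sets) of 35 were below 0, so the direction of single small changes depends on the scaling. Relative to the all-gene median the group stood at -0.13 in all 3, a value that centring cannot change. With cyclic loess it was -0.15. In 14 of 35 genes (40.0%) both BB94 arrays lay below all 4 controls, against 11% of all genes, and in 0 genes above, against 6.35%.

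The lowest changes under BB94 were those of KIF2C, at -0.41 (95% interval -0.67 to -0.15, adjusted p = 0.158), CDC25C, at -0.34 (-0.54 to -0.13, adjusted p = 0.147), and PLK1, at -0.34 (-0.68 to 0.01, adjusted p = 0.475). CENPF stood at -0.33 and CDC20 at -0.32 (adjusted p = 0.387 and 0.418). The highest were MAD2L1, at 0.07 (-0.27 to 0.41), and CCNA2, at 0.05 (-0.16 to 0.25). Intervals lay wholly below 0 for the 9 genes with an unadjusted p under 0.05, with the upper bound of CCNB1 rounding to 0. The SE ran from 0.08 to 0.17. AURKB, with the largest fall under PD325901, stood at -0.24 under BB94 (95% interval -0.61 to 0.13).

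The BB94 replicates differed from each other, with 29 of 35 genes lower in replicate 2 than in replicate 1. The share over all genes was not computed. The median level over all genes was also lower in replicate 2, at 7.39 against 7.58. The median deviation of all genes from control was 0 in replicate 1 and -0.04 in replicate 2. The count is therefore not read as particular to the 35 genes. MKI67 was 12.04 in replicate 1 and 11.52 in replicate 2, ESPL1 8.57 and 8.13, and CENPE 10.71 and 10.31. Without BB94 replicate 1 the group median was -0.27 and without replicate 2 it was -0.07, each with 1 BB94 array left. ACTB 3' minus 5' was 3.91 in replicate 1 and 4.22 in replicate 2, the highest of all arrays, and its part in this difference was not tested.

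The controls were divided too. Replicates 3 and 4 both lay above replicates 1 and 2 in 11 of 35 genes (31.4%, against 21% of all genes) and both below them in 14 (40%, against 41.1%). PLK1 was higher in replicates 3 and 4 by 0.44, AURKB by 0.43, CDC20 by 0.38 and NDC80 by 0.33. BUB1B was lower there by a log2 difference of -0.53, MAD2L1 of -0.44 and ANLN of -0.33, and all 6 genes of spindle, midzone and cytokinesis were lower. Against control replicates 3 and 4 alone, BB94 called 4 of 35 genes lower (11.4%) and 0 higher, where 4.27% of all genes were called lower and 4.74% higher. With counts this small, nothing is read from the 4 genes as a group. They were KIF2C (-0.55, adjusted p = 0.0152), PLK1 (-0.56, adjusted p = 0.0235), CDC20 (-0.50, adjusted p = 0.0131) and CCNB1 (-0.42, adjusted p = 0.0325). Against control replicates 1 and 2 alone it called 0 of the 35.

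**Figure D5:**
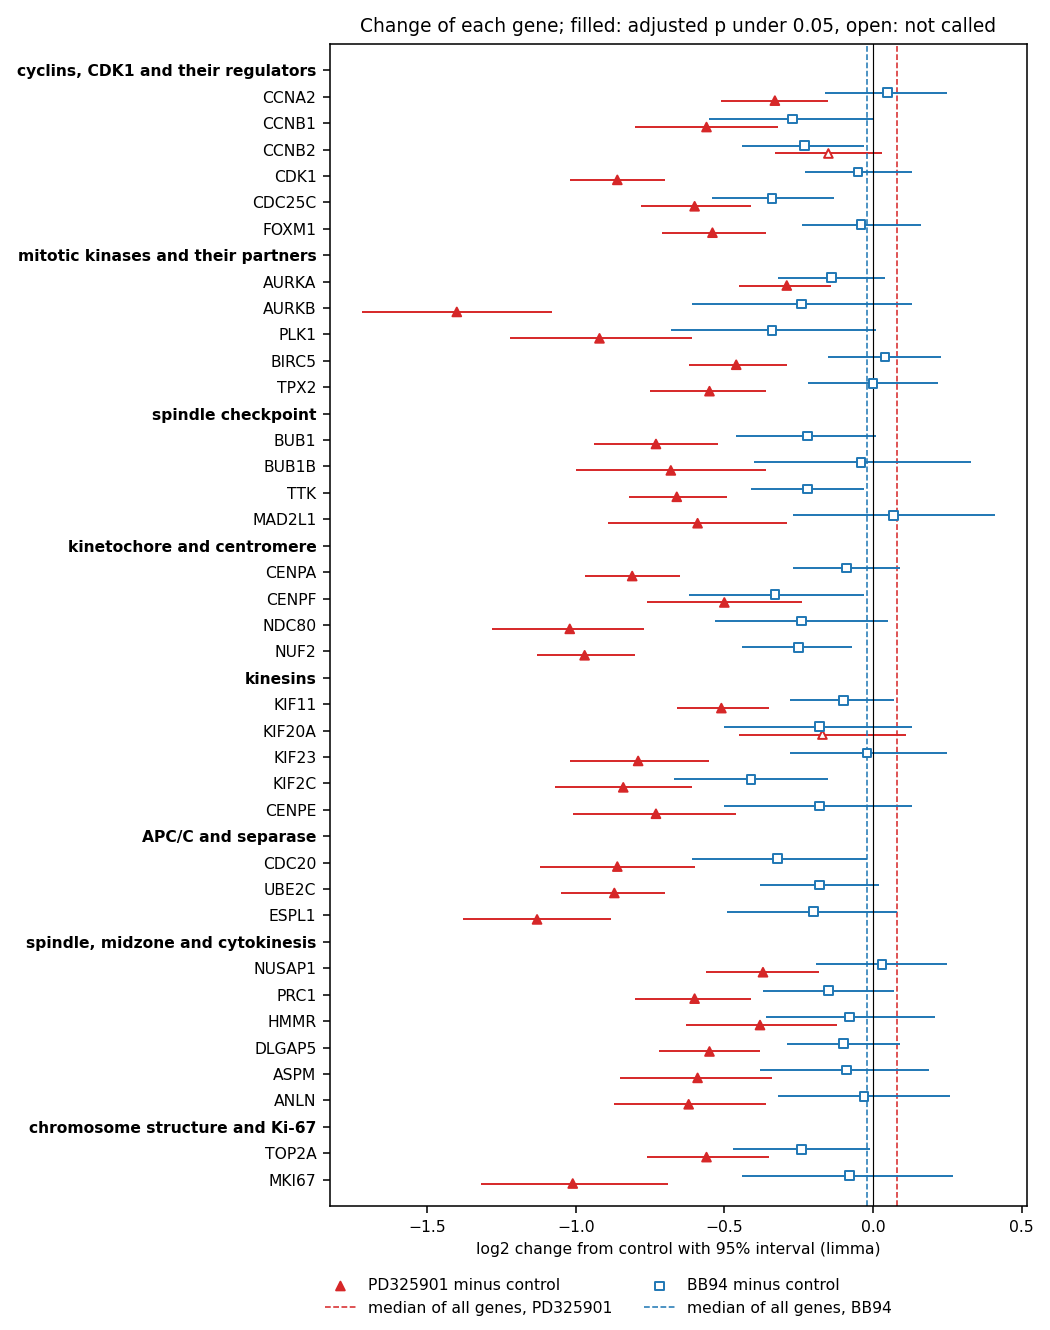
Log2 change from control with its 95% interval from limma for each gene, under PD325901 (triangles) and BB94 (squares), filled where the adjusted p was under 0.05. All but 2 of the PD325901 symbols are filled and 0 of the BB94 symbols are.

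Set against BB94, PD325901 gave lower values in 28 of 35 genes (80.0%) and higher in 0, where 10.2% of all genes were called lower and 21% higher. This comparison shares its PD325901 arrays with the one against control. The median was -0.50, beside 0.11 over all genes, and in 32 genes all PD325901 arrays lay below both BB94 arrays (20.1% of all genes). AURKB (-1.16, adjusted p = 0.000467), MKI67 (-0.92, adjusted p = 0.00176), ESPL1 (-0.92, adjusted p = 0.000378) and CDK1 (-0.81, adjusted p = 4.78e-05) were the lowest. The 7 genes not called were CCNB1 (-0.29), CDC25C (-0.26), AURKA (-0.15), CENPF (-0.17), HMMR (-0.30), CCNB2 (0.09) and KIF20A (0.02). The count rested on BB94 replicate 1, without which 15 genes were called lower (6.36% of all genes), while without replicate 2 it was 24 (7.73% of all genes).

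Further genes of the same processes were measured for context under PD325901, where 12.3% of all genes were called lower and 22.8% higher. Of 20 other kinetochore, centromere and passenger genes, 18 fell and 0 rose, with a median of -0.91. CENPK fell 2.93-fold and SPC25, a partner of NDC80 and NUF2 in their complex, 2.88-fold. SGO1 (shugoshin), which protects centromeric cohesion, fell at least 2.25-fold, with 0 of 3 PD325901 arrays above background. Of 13 other mitotic kinases, phosphatases and their controllers, 11 fell and 0 rose (median -0.98). PKMYT1, a kinase that inhibits CDK1, fell 3.46-fold, CDC25A, a phosphatase that activates CDKs, 3.14-fold and MASTL, the Greatwall kinase, 2.78-fold. CDC25B (0.21, adjusted p = 0.152) and BORA (-0.24, adjusted p = 0.106) were not called.

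Of 11 other kinesins and cytokinesis genes, 10 fell (median -0.46), led by ECT2, an activator of RhoA in cytokinesis, at -1.15, KIFC1 at -1.08 and KIF15 at -0.99. Of 15 condensin and cohesin genes, 10 fell and 0 rose (median -0.45). CDCA5 (sororin), at -1.34, and the condensin genes NCAPD3, at -1.27, and NCAPH, at -1.08, led them. SMC2, SMC3, RAD21, STAG2 and WAPL were not called. Of 13 APC/C subunits and coactivators, 3 were called lower and 2 higher, with a median of 0.00. Over all genes 12.3% were called lower and 22.8% higher, and counts this small are not read as a result. UBE2S, the ubiquitin-conjugating enzyme that extends chains for the APC/C, fell 2.25-fold, ANAPC10 1.30-fold and ANAPC1 1.25-fold. CDC16 (0.27) and CDC26 (0.22) were higher, but either centring ended both calls, with CDC26 at -0.03 over genes, and cyclic loess ended that of CDC26.

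Of 12 genes of the MuvB, DREAM and B-MYB regulators, 6 fell, 2 rose and 4 were not called. Over all genes 12.3% were called lower and 22.8% higher, so the 2 that rose are not read as a result about the list. MYBL2 (B-MYB), the activating partner of MuvB, had a mean of 8.12 ± 0.32 (SD, n = 4) in control and 6.54 ± 0.11 (SD, n = 3) under PD325901 (2.99-fold lower, adjusted p = 2.21e-05). RBL1 (p107), a pocket protein of DREAM, fell at least 1.97-fold, with 0 of 3 PD325901 arrays above background (adjusted p = 1.97e-06). Of the MuvB core genes, LIN54, whose protein contacts the CHR, fell 1.83-fold and LIN9 1.72-fold, LIN52 was called lower with both groups below background, LIN37 rose 1.41-fold and RBBP4 was not called (-0.33, adjusted p = 0.306). RBL2 (p130), the pocket protein of DREAM in resting cells, rose 1.34-fold (adjusted p = 0.0137), and TFDP1, a partner of E2F proteins, fell 1.57-fold. E2F4, E2F5 and TFDP2 were not called, at -0.18, 0.28 and -0.18. Centring over genes ended the calls of LIN37 (0.24, adjusted p = 0.117) and RBL2 (0.17, adjusted p = 0.25), while the other scalings kept both.

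The G1/S and DNA replication genes were called lower too, 25 of 25, where 12.3% of all genes were. Their median was -1.35, with a range of -2.31 to -0.62. For the 35 G2/M and mitosis genes these were -0.60 and -1.40 to -0.15. MCM5, among the 25, was below background on every control and PD325901 array, and ORC1 on every PD325901 array. In the PD325901 arrays the median deviation of these 25 genes from control was -1.24, -1.31 and -1.41, against -0.62, -0.64 and -0.65 for the 35. In the BB94 arrays it was 0.06 and -0.05, against -0.07 and -0.27. The difference between the lists was not tested.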

How the data were processed

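RNA of 9 MDA-MB231 cultures, 4 control, 2 with BB94 and 3 with PD325901, was measured on Affymetrix PrimeView arrays. The deposited values are log2 probe set intensities that the authors made with RMA, per the submitters' processing notes, and no scaling was added to them here. RMA equalises the probe intensity distributions of the arrays, so most of a shift shared by nearly all genes is lost from the values. Of 49395 probe sets, 102 controls were left out, and the platform annotation gave 44988 a single gene symbol, 1832 several and 2473 none. Each gene was taken from its probe set with the highest mean, which gave 18132 genes. Background is the highest of 23 background probe sets on each array. A bound ("at least") is the brighter group's mean over the higher, on each array of the dimmer group, of background and the gene's own value.

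The comparisons used limma 3.58.1 (R 4.3.3; lmFit and eBayes, a coefficient per group, 6 residual degrees of freedom), which was tested on simulated data. P-values were adjusted by the Benjamini-Hochberg method over all genes, those of the 5 gene pairs over the pairs. The number of arrays limits the precision, and array values carry no depth. All 36 pairs of arrays differed, with 350 to 987 equal values of 44988. Replicate numbers are not stated to pair the cultures, so the main fit had no block. Every one of the 35 genes is named, and of each further list up to 3 called genes with the largest change in each direction, the regulator list whole. Genes of the further lists that were not called were chosen for naming after their values were seen. The 35 genes and all lists were chosen with earlier results of these data known. Promoters are from RefSeq (GRCh38.p14). Alternatives were the mean of probe sets, no collapse, a filter on low means, trend and robust settings, array weights, both median centrings, cyclic loess, only the compared groups, a replicate block and leaving out arrays. The same scalings of the further lists were added after seeing the data.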

Additional observations from a re-analysis of the deposited data

Results flagged for a closer look

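In 3 of the 35 genes, 1 control array stood far from the other 3, by a rule that chance meets in about 1 in 20 groups. CENPE was 10.40 in control replicate 4, against 10.77 to 10.81 in the others. PRC1 was 11.62 in the same array, against 11.79 to 11.82. TOP2A was 12.46 in control replicate 3, against 12.16 to 12.21. All 3 genes were called lower under PD325901 without that array as well.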

How the results depend on the processing

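Under PD325901 the 33 calls became 32 to 35 over 19 settings, and 0 genes reversed. The median of the 35 genes (-0.60) became -0.66 with the mean of probe sets, -0.65 with array weights, -0.86 centred over genes, -0.70 centred over probe sets, -0.66 with cyclic loess and -0.67 without control replicates 3 and 4. Leaving out 1 array gave -0.66 to -0.58. The BB94 median (-0.15) became -0.18 with the mean of probe sets, -0.08 and -0.04 with the centrings over genes and probe sets, -0.10 without control replicates 1 and 2 and -0.27 to -0.07 without 1 array, and 4 of 35 genes were called without control replicates 1 and 2. The PD325901 against BB94 median (-0.50) became -0.83 and -0.72 with these centrings, -0.57 with cyclic loess and -0.58 to -0.43 without 1 array, with 15 to 26 of 35 genes called without 1 array. Over all genes, testing 44988 probe sets gave 13445, 697 and 11841 calls for PD325901, BB94 and PD325901 against BB94, in place of 6365, 286 and 5652. For BB94 the all-gene count was 469 with array weights, 140 with only the compared groups, 1633 without control replicates 1 and 2 and 62 to 367 without 1 array. Same-numbered arrays correlated at -0.19 to 0.12 in their deviations from group means. With 2 to 4 arrays per group such deviations are tied to each other, so these values cannot decide whether the cultures were paired. With the replicate block the medians were -0.66 under PD325901 and -0.19 under BB94, the BB94 count over all genes was 161, and 33, 0 and 28 of the 35 genes were called. Groups of 2 to 4 arrays limit what BB94 can show, and signal over background limited none of the 35 genes.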
